A study of Mus musculus with 4 samples.

Results

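Krt6a, Krt6b, Krt16 and Krt17 are the keratins that wounded and cultured epidermis is known to make. Their transcripts were described here in mouse skin epithelial cells before and after long serial culture. The 4 genes were taken by name from the array annotation, without use of any measured value, and were represented by 5 of 39429 non-control probes (Krt6b had 2 and the others 1 each). All 4 genes were among the 17387 genes that could be tested, so no member was lost to the filter on dim probes. The 15p cells were CD49f+ CD34+ cells sorted after the 15th serial culture in the presence of Wnt-3a, each culture lasting 10 days on collagen type I in dishes of 60 mm, with CD49f+ CD34+ cells sorted again before the next. The 0p cells were CD49f+ CD34+ cells sorted from primary skin epithelial cells. Both came from adult C3H/HeN mice, and Wnt-3a is listed among the labels of both, so whether 0p cells had been cultured with it is not settled here. RNA of 15p and 0p cells was hybridised together on each of 4 two-colour arrays, as 2 biological replicates with a dye-swapped pair of arrays each. The arrays are called 1-Cy5, 1-Cy3, 2-Cy5 and 2-Cy3 here, by the replicate number and the dye that carried the 15p RNA, and where a replicate has a pair of values the Cy5 array comes before the Cy3 array. Separate animals are not stated for the replicates, so p-values measure only the spread between these samples.

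Keratins form filaments as pairs of a type I and a type II protein. Krt6a and Krt6b are near-identical type II keratins, and Krt16 and Krt17 are type I keratins that pair with them. In intact skin these genes are mainly known from the hair follicle, nail and palmoplantar epidermis, and they are induced in interfollicular keratinocytes after wounding, in hyperproliferative disease and when keratinocytes are put into culture. Krt5, Krt14 and Krt15 are the keratins of resting basal cells, and in the mouse they sit in the same gene clusters. By the RefSeq table of GRCm38.p6, Krt6b, Krt6a and Krt5 follow each other on chromosome 15, and Krt14, Krt16, Krt17 and Krt42 follow each other on chromosome 11.

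The probe sequences decide which transcripts each value can stand for, and they are shown here for that reason. Each probe had 60 bases, matched the minus strand in the files' mm9 coordinates, and was spotted once per array. The first probe carries the name Krt6b but its annotation lists transcripts of both Krt6b and Krt6a, and it is called the shared Krt6 probe below. It lies at chr15:101509450-101509509 and is shown whole.
Shared Krt6 probe: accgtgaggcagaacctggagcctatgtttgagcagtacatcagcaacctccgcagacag
The Krt6a probe, at chr15:101520862-101520921, and the Krt6b probe that lists Krt6b transcripts alone, at chr15:101506492-101506551, are shown by their first 30 bases.
Krt6a probe: agcaagaagagctacaggcagtgaattctg
Krt6b own probe: cttgtgacaacacagtcattagtcctgtgc
The Krt16 probe, at chr11:100107408-100107467, and the Krt17 probe, at chr11:100117535-100117594, are shown by their last 30 bases, where capitals mark the hexamer AATAAA, the letters of the common polyadenylation signal.
Krt16 probe: ggtaggctAATAAAgctttttggttgatgc
Krt17 probe: ttctgaacactgaAATAAAtgaccatggtg
The hexamer was searched on the probe strand only and occurred in 12.6% of all non-control probes (4965 of 39429), so its presence in these probes is a description. The longest run of bases common to any pair of the 5 probes was 4 to 7 bases, and 0 other probes on the array shared a run of 20 bases with any of them. Their GC content was 55% for the shared Krt6 probe, 50% for Krt6a, 45% for the Krt6b own probe, 50% for Krt16 and 43.3% for Krt17. Which exon or untranslated region each probe lies in was not analysed here.

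One array stood apart from the other 3. On array 2-Cy5 the log2 ratios of 15p over 0p had an SD of 0.289 over all tested genes, against 0.129 to 0.140 on the others, and 108 genes lay beyond 2-fold there, against 0 to 4. Within a dye-swapped pair the ratios, turned to 15p over 0p, were negatively correlated across genes (Pearson r = -0.55 in replicate 1 and -0.40 in replicate 2, over 17387 genes, which are not independent replicates). Arrays of the same dye orientation were positively correlated across genes (0.27 between 1-Cy5 and 2-Cy5, 0.41 between 1-Cy3 and 2-Cy3), while replicate 1 and replicate 2, each averaged over its pair, had r = 0.089. The dyes were taken from the labels. The replicates lay on different slides, and the effects of slide and replicate cannot be told apart. Between 55.5% and 65.1% of spots were well above background in 15p RNA, and between 57.0% and 68.3% in 0p RNA. The number of arrays limits the precision.

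All 5 stress keratin probes gave signal well above background on all 4 arrays in 15p as in 0p RNA, and no spot was saturated or irregular. Their mean spot intensities before correction ran from 1480 to 123294 scanner units in 15p RNA and from 1198 to 105748 in 0p RNA, against local backgrounds of 29 to 51 and 24.5 to 55. Signal was thus far above background after serial culture and before it. None of the 4 genes passed as higher or as lower in 15p cells (0 of 4 either way by limma, Benjamini-Hochberg adjustment over all genes at 0.05), and no other gene passed either (0% of 17387 in each direction). At an unadjusted p under 0.05, Krt6a and Krt16 were higher (2 of 4, beside 2.93% of all genes) and none was lower (beside 3.38%). The mean ratio was above 0 for Krt6a, Krt16 and Krt17 (3 of 4, beside 51.4% of all genes), and above 0 in both replicates for Krt6a and Krt16 (2 of 4, beside 29.8%). No member was above 0 on all 4 arrays (0 of 4, beside 3.66%). In these counts the shared Krt6 probe stood for Krt6b, whose own probe had a mean log2 ratio of 0.25. In bulk RNA, fewer cells with a transcript and less of it per cell cannot be told apart.

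**Figure D1:**
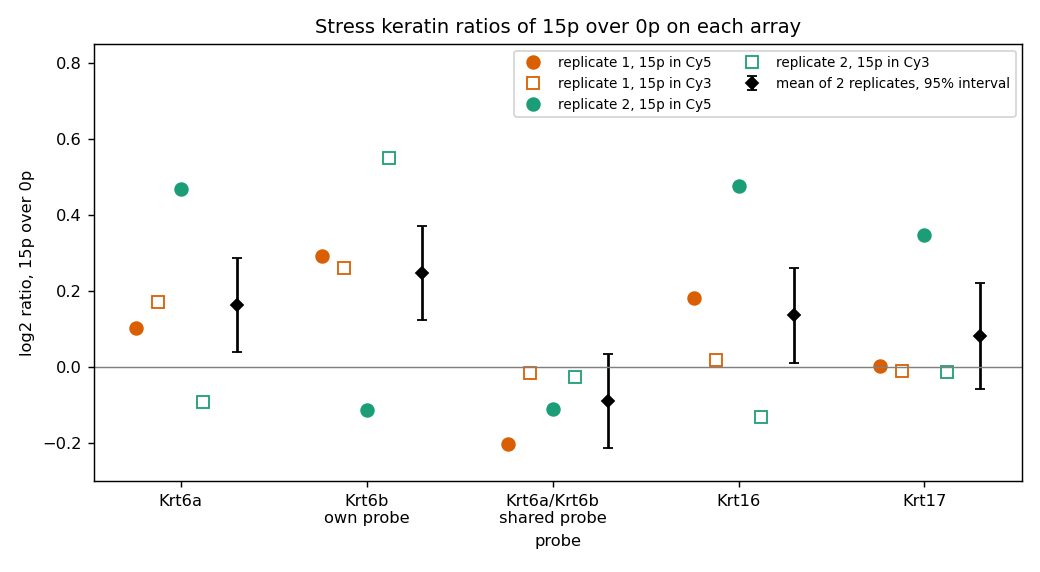
Log2 ratio of 15p over 0p (vertical axis) for each of the 5 stress keratin probes on the 4 arrays, with filled circles for 15p in Cy5, open squares for 15p in Cy3 and 1 colour per replicate. Diamonds are means of the 2 replicates with the 95% interval of the limma fit over 21673 probes. Array 2-Cy5 gives the highest point for Krt6a, Krt16 and Krt17, and the Krt6b own probe is lowest there.

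Krt6a encodes the more widely studied of the mouse Krt6 proteins in wound repair. Its log2 ratio of 15p over 0p was 0.10 on array 1-Cy5, 0.17 on 1-Cy3, 0.47 on 2-Cy5 and -0.092 on 2-Cy3. In the same array order its normalised log2 intensity was 14.01, 14.00, 14.23 and 13.80 in 15p RNA, against 13.90, 13.83, 13.76 and 13.89 in 0p RNA. The 15p values were the higher on 3 of 4 arrays, and the lowest of them, on array 2-Cy3, lay within the range of 0p. The mean log2 ratio was 0.16 ± 0.035 (SD, n = 2 replicates; 95% interval 0.042 to 0.28), or 1.12-fold (1.03 to 1.22), with an unadjusted p = 0.0134 and an adjusted p = 0.750 by limma. A mean ratio as high was found in 1.44% of genes. Without array 2-Cy5, the ratio was 0.072 (interval -0.052 to 0.20; adjusted p = 0.99997 by limma). Without array 1-Cy5 it was 0.25 (adjusted p = 0.00121 by limma).

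Krt16 encodes the type I partner that is induced together with Krt6 proteins. Its log2 ratio took values of 0.18 and 0.018 in replicate 1 and 0.48 and -0.13 in replicate 2. Its log2 intensity was 16.00, 15.93, 16.28 and 15.84 in 15p RNA, against 15.81, 15.92, 15.80 and 15.97 in 0p RNA, over the arrays in the order used for Krt6a. The groups overlapped: 15p was higher on 3 arrays, by a small margin on array 1-Cy3, and lower on array 2-Cy3. The mean log2 ratio was 0.14 ± 0.052 (SD, n = 2; interval 0.014 to 0.26), or 1.10-fold (1.01 to 1.20), with an unadjusted p = 0.0326 and an adjusted p = 0.750 by limma. Without array 2-Cy5 the ratio was 0.063 (adjusted p = 0.99997 by limma), and without array 1-Cy5 it was 0.21 (adjusted p = 0.00980). With median centring in place of loess it was also 0.21, and not called (adjusted p = 0.611 by limma).

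Krt17 encodes a type I keratin of hair follicle and wound-edge keratinocytes. Its log2 ratio took values of 0.0035 and -0.0093 in replicate 1 and 0.35 and -0.013 in replicate 2. Its log2 intensity was 12.09, 12.11, 12.55 and 12.13 in 15p RNA, against 12.08, 12.12, 12.20 and 12.14 in 0p RNA, in the same array order. On 3 of the 4 arrays the RNAs differed by less than 0.02 in log2 intensity, and array 2-Cy5 alone held a high 15p value. The mean log2 ratio was 0.083 ± 0.12 (SD, n = 2; interval -0.052 to 0.22), or 1.06-fold (0.96 to 1.16), with an adjusted p = 0.804 by limma, so the SD was larger than the mean. Without array 2-Cy5 the ratio turned to -0.0038 (interval -0.13 to 0.12), and without array 1-Cy5 it was 0.17 (adjusted p = 0.0459 by limma).

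The fit without array 1-Cy5 was the only one of 17 alternative fits in which Krt6a, Krt16 or Krt17 was called (3 of the 4 members, all higher). It rests on the array that stood apart as its sole array with 15p in Cy5. The other calls named below for that fit rest on it in the same way. Every fit without 1 array also took both arrays of the intact dye-swapped pair as independent samples. They are technical repeats, so the p-values of these fits leave out that pairing. The same fit called 8.83% of all genes higher and 9.12% lower, with prior degrees of freedom estimated as infinite, so that all genes shared 1 spread. The fit without array 2-Cy5 called 0 of the 4 members, beside 0.242% of all genes higher and 0.265% lower.

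Krt6b gave different values by its 2 probes. Its own probe had log2 ratios of 0.29 and 0.26 in replicate 1 and -0.11 and 0.55 in replicate 2. Its log2 intensity was 11.36, 11.27, 10.92 and 11.27 in 15p RNA, against 11.06, 11.01, 11.04 and 10.72 in 0p RNA, in the array order used above. The groups overlapped through the 15p value of array 2-Cy5, which lay below 3 of the 0p values, while the other 3 values of 15p exceeded every value of 0p. With this probe standing for Krt6b, a choice made after the values were seen, the mean log2 ratio was 0.25 ± 0.041 (SD, n = 2; interval 0.13 to 0.37), or 1.19-fold, with an adjusted p = 0.749 by limma. Without array 2-Cy5 it was 0.35 (interval 0.22 to 0.47; adjusted p = 2.78e-05 by limma), and without each of the other arrays in turn it was 0.15 to 0.32 and not called. In the fit without array 2-Cy5, array 1-Cy5 was alone with 15p in Cy5, all genes shared 1 spread, and 0.247% of genes were called higher. In a fit of every kept probe, 3 of the 5 stress keratin probes had an unadjusted p under 0.05 and were higher (Krt6a, Krt16 and the Krt6b own probe, beside 2.45% of 21673 probes), and 0 of 5 passed after adjustment (beside 0% of probes).

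The shared Krt6 probe was the brighter of the Krt6b probes and therefore stood for Krt6b in the main test. Its mean ratio had the other sign. Its log2 ratios were -0.20 and -0.015 in replicate 1 and -0.11 and -0.027 in replicate 2. They were below 0 on each of the 4 arrays, though close to 0 on 1-Cy3 and 2-Cy3. The share of all genes below 0 on all 4 arrays was not counted. Its log2 intensity was 13.39, 13.38, 14.05 and 14.14 in 15p RNA, against 13.60, 13.40, 14.16 and 14.17 in 0p RNA. The 15p value was the lower on each array, by less than the distance between the replicates. The mean log2 ratio was -0.089 ± 0.029 (SD, n = 2; interval -0.21 to 0.032), or 0.94-fold, with an adjusted p = 0.774 by limma. Without array 2-Cy5 it was -0.11, and with median centring in place of loess it was -0.034.

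The mean log2 ratios of the Krt6b probes differed by 0.34 (own minus shared). Of 3592 genes with several kept probes, 25 (0.696%) had probes at least as far apart, and the median distance was 0.056. The distance from the Krt6b own probe to the Krt6a probe changed sign between arrays: Krt6a minus Krt6b took values of -0.19 and -0.088 in replicate 1 and 0.58 and -0.64 in replicate 2. Since the annotation of the shared probe lists transcripts of both genes, its value cannot be assigned to Krt6b, and no direction is given here for Krt6b as a gene.

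The shared Krt6 probe also separated the replicates in both RNAs. Its log2 intensity was 0.71 higher in replicate 2 than in replicate 1 in 15p RNA and 0.67 higher in 0p RNA. A mean shift that large in either direction was found for 193 of 21673 kept probes (0.891%). The same difference, averaged over 15p and 0p, was -0.015 for Krt6a, 0.059 for Krt16, 0.15 for Krt17 and -0.18 for the Krt6b own probe. The part of slide and of replicate in it cannot be told apart.

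**Figure D2:**
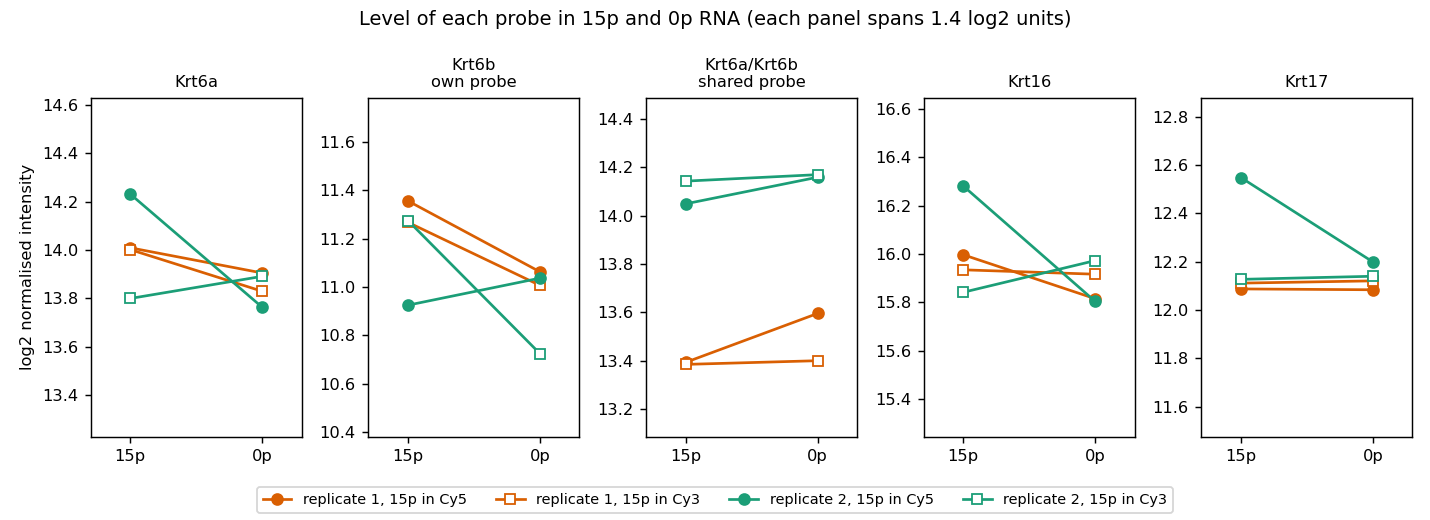
Normalised log2 intensity (vertical axis, 1.4 log2 units in each panel) of the 5 stress keratin probes in 15p and 0p RNA, with a line for each of the 4 arrays. For the shared Krt6 probe the replicate 2 lines lie 0.71 above those of replicate 1 in 15p RNA and 0.67 above in 0p RNA, while the steep lines of Krt6a, Krt16 and Krt17 belong to array 2-Cy5.

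The dye swap allowed a dye term to be fitted beside the RNA term. This fit took the 4 arrays as independent, without the replicate pairing of the main test, so its p-values and intervals leave out that pairing. The dye term is the log2 ratio of Cy5 over Cy3 whichever RNA carried it. It was 0.19 for Krt16 (95% interval 0.031 to 0.36; unadjusted p = 0.0260, adjusted p = 0.255 by limma), 0.12 for Krt6a, 0.094 for Krt17, -0.068 for the shared Krt6 probe and -0.16 for the Krt6b own probe. None of the 5 passed (0 of 5, beside 0.208% of probes), and no RNA term passed in that fit (0 of 5, beside 0% of probes; adjusted p = 0.957 for each). For Krt16 the dye term was larger than the RNA term of 0.14, and for Krt17 it was 0.094 against 0.083. Krt17 was the member whose ratio was above 0 on 1-Cy5 and 2-Cy5 and below 0 on 1-Cy3 and 2-Cy3 (1 of 4, beside 18.1% of all genes). With 15p in Cy5 the mean ratio was 0.29 for Krt6a, 0.33 for Krt16, 0.18 for Krt17 and 0.091 for the Krt6b own probe. With 15p in Cy3 it was 0.040 for Krt6a, -0.056 for Krt16, -0.011 for Krt17 and 0.41 for the Krt6b own probe.

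**Figure D3:**
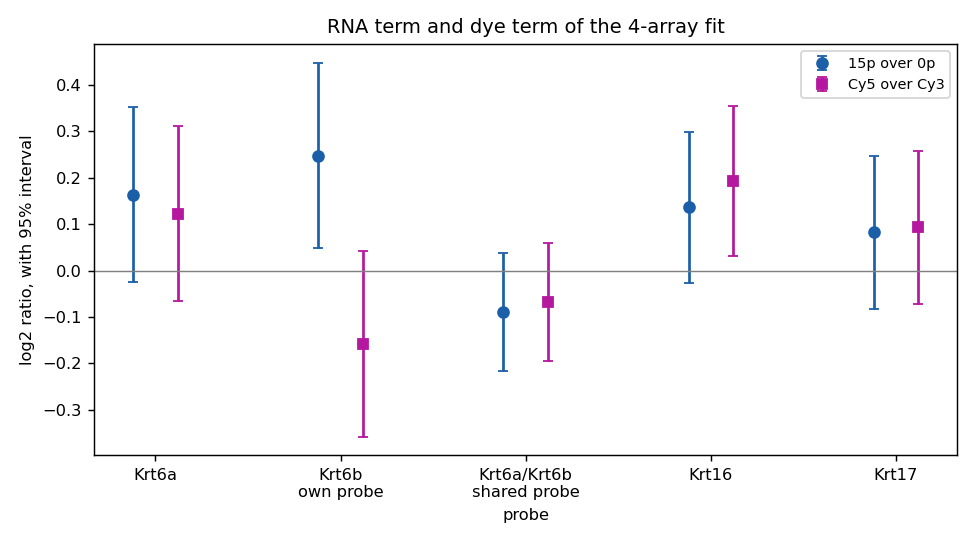
Terms of the fit of 4 arrays for each stress keratin probe, as log2 ratios with 95% intervals (vertical axis): circles for 15p over 0p and squares for Cy5 over Cy3. The dye interval of Krt16 (0.031 to 0.36) and the RNA interval of the Krt6b own probe (0.048 to 0.45) are the ones that leave out 0. The 4 arrays were taken as independent, without the replicate pairing of the main test.

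Set among all tested genes, Krt6a, Krt16 and Krt17 had their largest absolute ratio on array 2-Cy5 (3 of 4 members, beside 56.8% of all genes). A mean ratio as high as that of Krt16 was found in 2.86% of genes, one as high as that of Krt17 in 11.7%, and one as high as that of the shared Krt6 probe in 90.0%. Over all genes the mean log2 ratio had a median of 0.0025 and ran from -0.59 to 0.47.

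**Figure D4:**
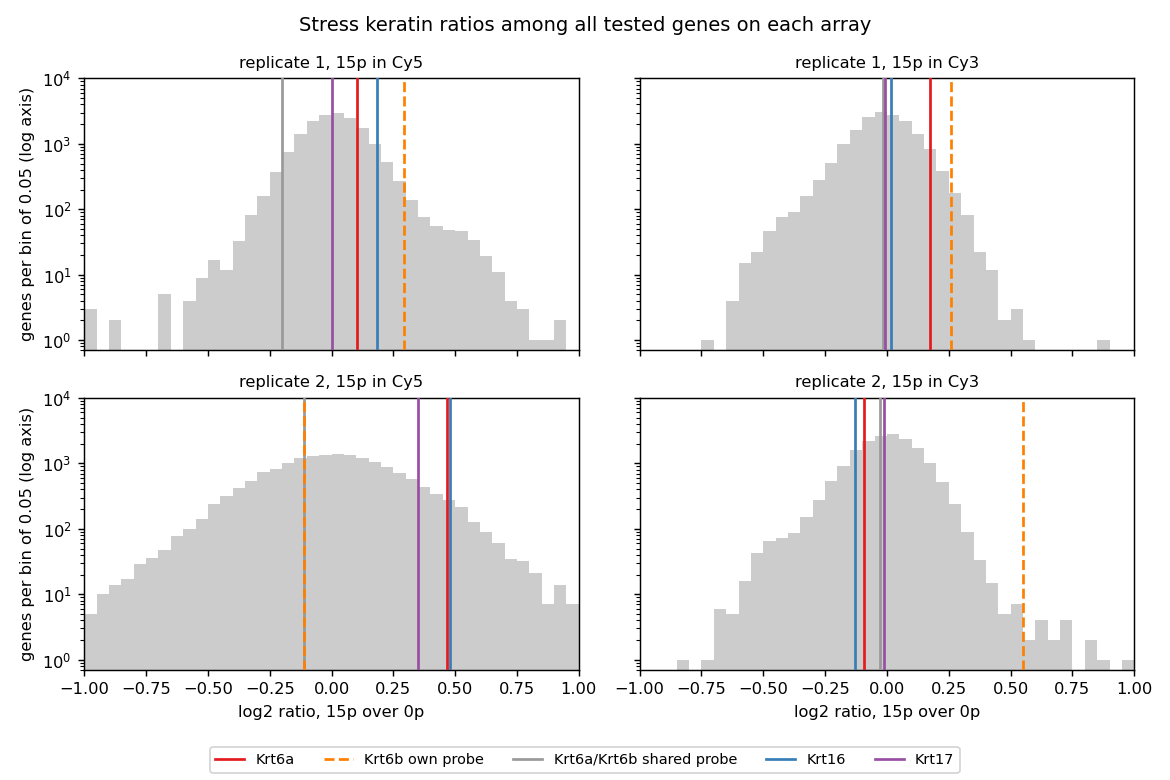
Number of tested genes per bin of 0.05 in log2 ratio of 15p over 0p (horizontal axis, cropped at -1 and 1; vertical axis logarithmic) on each of the 4 arrays, with coloured lines at the stress keratin probes. The distribution is wider on array 2-Cy5 (SD 0.289), where Krt6a and Krt16 lie at 0.47 and 0.48 and the dashed line of the Krt6b own probe covers that of the shared probe, and on its dye swap the Krt6b own probe lies at 0.55.

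The basal keratins, filament partners and chromosomal neighbours of the stress keratins, were likewise not called (0 of 3). Their median log2 ratio was 0.17, against 0.0025 over all genes and 0.11 over the 4 stress keratins, with the shared probe standing for Krt6b. Krt14, the basal type I keratin next to Krt16, had ratios of 0.085 and 0.12 in replicate 1 and 0.73 and -0.18 in replicate 2. Its mean was 0.19 ± 0.12 (SD, n = 2; adjusted p = 0.750 by limma). Krt15, a basal and bulge keratin, had 0.17 ± 0.033 (adjusted p = 0.750 by limma). Its arrays with 15p in Cy5 gave 0.31 and 0.48 and their dye swaps -0.012 and -0.093, a difference that this SD leaves out. Krt5, the basal type II keratin next to Krt6a, had 0.00042 ± 0.036 by its brightest probe and -0.11 by the mean of its kept probes. By the brightest probe, its arrays with 15p in Cy5 gave 0.23 and 0.34 and their dye swaps -0.18 and -0.39. With these dye swaps alone Krt5 was called lower, at -0.28 (adjusted p = 0.00474 by limma), a fit in which a dye effect does not cancel and which called 1.32% of all genes higher and 3.4% lower. The high ratio on array 2-Cy5 was thus shared by Krt14, Krt5 and Krt15 (0.48) with Krt6a, Krt16 and Krt17. Without that array the mean of Krt14 was 0.027 and that of Krt15 0.13, while without array 1-Cy5 both were called, at 0.35 (adjusted p = 2.41e-06 by limma) and 0.22 (adjusted p = 0.00805 by limma).

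Of 16 other epithelial keratins, 10 were tested, 0 were called and the median log2 ratio was 0.016. Krt13, a keratin of internal stratified epithelia, had -0.15 ± 0.19, and Krt19, a keratin of simple epithelia and bulge cells, had 0.13 ± 0.14 (SD, n = 2; adjusted p = 0.750 for each by limma). From the processed intensities Krt19 was at 0.40 (interval 0.045 to 0.75; adjusted p = 0.833 by limma), and by the mean of its kept probes Krt13 was at -0.037. Without array 2-Cy5 they were -0.046 and 0.044, and without array 1-Cy5 both were called, at -0.26 and 0.22 (adjusted p = 0.000949 and 0.00679 by limma). Krt75, a Krt6-like keratin of the follicle companion layer, was not well above background on any array in 15p or in 0p RNA, and neither was Krt1, a keratin of suprabasal differentiation.

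Of 21 transcription factors and related regulators known to act on stress keratin genes, 20 were tested and 0 were called. A mean ratio above 0 was found for 9 of the 20 (beside 51.4% of all genes), and the median was -0.0095. The members farthest from 0 were Nr3c1, the glucocorticoid receptor, which represses these keratins, at -0.15 ± 0.14, and Klf4, a factor of epidermal differentiation, at -0.11 ± 0.083 (SD, n = 2; adjusted p = 0.750 for each by limma). By the mean of its kept probes Nr3c1 was at 0.046. Without array 2-Cy5 Nr3c1 was at 4.91e-05 and Klf4 at -0.019, and without array 1-Cy5 both were called, at -0.30 and -0.20 (adjusted p = 7.35e-05 and 0.0133 by limma).

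Among 23 ligands, cytokines and receptors known to induce stress keratins in keratinocytes, 17 were tested and 0 were called. Of these 17, 6 lay above 0 (beside 51.4% of all genes), and the median was -0.033. Areg, a ligand of the EGF receptor, had -0.14 ± 0.17, and Il22, a cytokine of lymphocytes, had -0.12 ± 0.017 (adjusted p = 0.750 for each by limma). The Areg arrays ranged from -0.51 to 0.47, and its sign turned to 0.090 without array 1-Cy5. Without array 2-Cy5 Areg was called at -0.37, in a fit where array 1-Cy5 was alone with 15p in Cy5 and all genes shared 1 spread. It was also called with 15p in Cy3 only, at -0.29 (adjusted p = 0.00328 by limma). That fit too left out array 2-Cy5, a dye effect does not cancel in it, and it called 3.4% of all genes lower. From the processed intensities Il22 was at -0.21. The cytokine genes Il6, Il17a, Tnf and Ifng stood well above background on 0 arrays in either RNA.

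Linkers and binding partners of keratin filaments gave 13 tested of 14 and 0 called. Of these 13, 5 lay above 0 (beside 51.4% of all genes), and the median was -0.014. The farthest from 0 were Ppl, which encodes the desmosomal linker periplakin, at -0.16 ± 0.24, and Dsp, which encodes desmoplakin, at -0.14 ± 0.19 (SD, n = 2; adjusted p = 0.750 for each by limma). Both SDs exceeded the size of the mean. Without array 2-Cy5 the ratios were -0.0047 for Ppl and 0.0071 for Dsp, and without array 1-Cy5 both genes were called, at -0.31 and -0.28 (adjusted p = 5.16e-05 and 0.000244 by limma).

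Genes of activated keratinocytes, which are known to accompany stress keratins in wounded or inflamed epidermis, gave 17 tested of 23 and 0 called. Of these 17, 14 lay above 0 (beside 51.4% of all genes) and 3 below, and the median was 0.037. Among them were S100a8 at 0.090, Sprr2h at 0.054, Sprr1b at 0.026, Sprr2d at -0.016 and Ptgs2 at -0.13. S100a9, which encodes a calprotectin subunit, had log2 ratios of 0.099 and 0.33 in replicate 1 and 0.18 and 0.38 in replicate 2. Sprr1a, a cornified envelope precursor gene, had 0.16 and 0.085 in replicate 1 and 0.41 and 0.15 in replicate 2. Both were above 0 on all 4 arrays, unlike any stress keratin, and 3.66% of all genes were so. S100a8 was above 0 on all 4 arrays too, with 0.13 and 0.046 in replicate 1 and 0.092 and 0.089 in replicate 2. Their means were 0.25 ± 0.043 for S100a9 and 0.20 ± 0.11 for Sprr1a (SD, n = 2), with an adjusted p = 0.750 for each by limma. Without array 1-Cy5 both were called, at 0.27 each (adjusted p = 0.000661 and 0.000673 by limma), and without array 2-Cy5 they were at 0.23 and 0.14 and not called. S100a9 was also called on the arrays with 15p in Cy3 alone, without array 2-Cy5 or 1-Cy5, at 0.35 (adjusted p = 0.000104 by limma). In that fit a dye effect does not cancel, and 1.32% of all genes were called higher.

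The markers of the sort were only partly measured. Itga6, which encodes CD49f, was well above background on all 4 arrays with a log2 ratio of 0.025 ± 0.041 (SD, n = 2). Cd34 was well above background on 0 arrays in 15p RNA and on 1 in 0p RNA, and Lhx2 and Lgr5, which mark follicle stem cells, on none in either. Sox9, a transcription factor of the bulge and outer root sheath, had -0.38 ± 0.60 (adjusted p = 0.750 by limma), with -1.56 on array 2-Cy5 and -0.059 to 0.14 on the others. Without array 2-Cy5 it was 0.040, and without array 1-Cy5, a fit resting on array 2-Cy5 for 15p in Cy5, it was called at -0.81. With the arrays paired across replicate numbers Sox9 was also called lower, at an unchanged mean of -0.38 (adjusted p = 0.00583 by limma). In that fit all genes shared 1 spread, and 53 of 17387 genes were called lower. Of 10 markers of other skin cell types 6 were tested and 0 were called, with mean ratios from -0.043 to 0.088. The highest were Col3a1 of fibroblasts (0.088) and Mlana of melanocytes (0.083). The lowest, Cd3e of T cells, had -0.24 in replicate 1 and 0.16 in replicate 2. From the processed intensities Col3a1 was at 0.17. Pecam1 of endothelium (0.060) and Cd3e were well above background on all 4 arrays in each RNA. Of the markers left out of the test, Cdh5 of endothelium was not well above background on any array. Dct of melanocytes was well above background on 1 array in each RNA, and Ptprc of leukocytes and Col1a1 of fibroblasts on 3 in each. The part of these cell types in the keratin values was not tested.

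The genes whose 4 array ratios lay nearest to the mean of the stress keratins were Slc22a5 (Euclidean distance 0.015 over 4 arrays), Prom2 (0.025) and Adgrf4 (0.027), with the shared probe standing for Krt6b. The mean of the stress keratins took values of 0.022 and 0.041 in replicate 1 and 0.30 and -0.066 in replicate 2, and Slc22a5 had 0.023, 0.049, 0.28 and -0.064 in that order. The stress keratins themselves lay farther from their mean, at 0.092 for Krt17, 0.23 for Krt6a, 0.25 for Krt16 and 0.47 for Krt6b. None of the 3 genes was called (adjusted p from 0.810 to 0.831 by limma).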

How the data were processed

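The 4 arrays of 2 biological replicates, each a dye-swapped pair of 15p and 0p RNA, were analysed. The deposited scanner output gives each spot's mean intensity and its local background in both dyes, made with Agilent Feature Extraction 10.7.3.1, per the file headers and the submitters' processing notes. The software's own processed intensity, background-subtracted and dye-normalised per the file headers, was an alternative. So was the deposited log10 ratio (Cy5 over Cy3 of those intensities, per the file headers), which by comparison also fills the series' value table. The other deposited columns are flags of 0 or 1.

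Intensities were corrected with normexp (offset 50) and loess in R 4.3.3 with limma 3.58.1 (files read with data.table, version 1.17.8). Control and irregular spots were left out. Kept probes were well above background in 15p RNA on all 4 arrays, or in 0p RNA on all 4 (21673 of 39429 probes), and the brightest stood for its gene. Symbols came through the GRCm38.p6 RefSeq table (26055 probes matched) and otherwise from the files. Levels are log2 intensities after loess and Aquantile. Levels of different probes were not compared.

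Ratios were turned to 15p over 0p, averaged within each pair and set against 0 in a two-sided limma test (lmFit, eBayes), Benjamini-Hochberg at 0.05 (prior degrees of freedom 8.83, residual 1). The SD over replicates leaves out the difference within a pair. The fit was tested on simulated data in which all arrays had the same spread, so that test does not cover the wider array 2-Cy5. The members, lists and rules were chosen with earlier results of these data known. From each list the 2 tested members farthest from 0 were named where none was called, besides Krt5, Krt14, Krt75 and the 3 genes nearest in profile. Replicate numbers were checked for pairing: same-numbered arrays' deviations from their orientation mean correlated at -0.26, and the pairing used comes from the labels.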

Additional observations from a re-analysis of the deposited data

Results flagged for a closer look

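In 15 sets of 4 array values (ratio, 15p level and 0p level of 5 probes), 3 had a value far from the others. The rule marks about 1 in 20 sets of independent, like-distributed values, a rate that cannot be set against this count. The sets are not independent, since the ratio of a probe is its 15p level minus its 0p level, and array 2-Cy5 was wider than the others. The Krt17 ratio on array 2-Cy5 (0.35) and its 15p log2 intensity there (12.55) were far above the other 3. The 0p log2 intensity of the Krt6b own probe on array 2-Cy3 (10.72) was far below the others. For Krt17 both ratios with 15p in Cy5 were above 0 and both dye swaps below 0, a difference of 0.19 in mean log2 ratio. The dye term of Krt17 (0.094 for Cy5 over Cy3), which tests this difference, did not pass (adjusted p = 0.503 by limma).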

How the results depend on the processing

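Of 17 alternative fits, 10 called 0 genes. Among these 10, the fit with a dye term and a replicate block (0 called, 1096 genes at an unadjusted p under 0.05) repeats the main values by construction and changed no call. Without the filter on dim probes 1 gene was called, with 15p in Cy5 only 11, with 15p in Cy3 only 820, and with the arrays paired across replicate numbers 60 (7 higher, 53 lower). Leaving out 1 array gave 0 to 3120 called genes, with ratios of 0.072 to 0.25 for Krt6a, -0.11 to -0.066 for Krt6b, 0.063 to 0.21 for Krt16 and -0.0038 to 0.17 for Krt17. The Krt6b ratios given here are those of the shared probe. A replicate alone gave a value with no test, and Krt17 was at -0.0029 in replicate 1 alone. Krt6a stayed above 0 in 17 of 17 fits (0.040 to 0.29), but many of these could not change its sign. Its mean of 0.16 stays the same by construction under Aquantile, the mean of kept probes and no filter on dim probes. The same holds for the fits of 4 arrays with a dye term, for arrays paired across replicate numbers and for unpaired levels. The processed intensities and the deposited ratio made from them both gave 0.17. By the mean of its probes Krt6b turned to 0.080, by its own probe to 0.25, and by its own probe without 1 array to 0.35 (without 2-Cy5), 0.32 (without 1-Cy3), 0.18 (without 2-Cy3) and 0.15 (without 1-Cy5). With 15p in Cy3 only, Krt16 turned to -0.056 and Krt17 to -0.011.

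Of 380 values of other named genes under an alternative, 28 had the other sign. Of the 340 with a test, 16 were called. The cause was not tested. In replicate 1 alone Ppl was 0.016, Itga6 -0.0040 and Sox9 0.038, and in replicate 2 alone Krt5 was -0.025. With median centring Krt5 was 0.091 and Itga6 0.086. By the mean of kept probes Krt5 was -0.11 and Nr3c1 0.046. Without 1 array, the values crossed 0 for Krt5 (-0.051 to 0.052), Areg (-0.37 to 0.090), Nr3c1 (-0.30 to 4.91e-05), Dsp (-0.28 to 0.0071), Sox9 (-0.81 to 0.040), Prom2 (-0.0069 to 0.14) and Adgrf4 (-0.0059 to 0.13). With 15p in Cy5 only, Areg was 0.011, Itga6 -0.097 and Mlana -0.016. With 15p in Cy3 only, Krt5 was called lower at -0.28, Areg lower at -0.29 and S100a9 higher at 0.35, and Krt14 was -0.031, Krt15 -0.053, Krt13 0.054, Krt19 -0.037, Klf4 0.00024, Nr3c1 0.16, Ppl 0.088, Slc22a5 -0.0075, Prom2 -0.016 and Adgrf4 -0.026.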
